A study of Mus musculus with 12 samples.

Results

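The genes described here are 10 mouse genes of mucosal defence and mucus: the secreted airway proteins Bpifa1 and Bpifb1, the lectin Reg3g, the iron- and siderophore-binding proteins Ltf and Lcn2, the immunoglobulin transporter Pigr and the mucins Muc1, Muc4, Muc5b and Muc16. They were chosen by name, as genes that airway and milk share or divide between them, and a probe was taken as a member where the transcript accession of the array design maps to one of the 10 symbols. Of the 17178 gene symbols that the array's probes carry, these are 10 by list and 9 by measurement, since no probe mapped to Muc16. Of the 9, 8 were bright enough to be tested, and Pigr was not.

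Messenger RNA was measured on 12 one-colour Agilent whole mouse genome arrays, 3 in each of 4 groups. These were epithelial cells of adult lung and of adult mammary gland, and the cells labelled reprogrammed lung and reprogrammed mammary. The labels describe the adult donors as female mice 10 weeks old. Their epithelium was freed by trypsin and collagenase digestion and enriched by repeated washing and centrifugation, and no sort of cells is mentioned. Lung was digested for 45 minutes and washed 7 times, mammary gland for 30 minutes and 5 times, so organ and preparation cannot be told apart. The same protocol describes single cells prepared in Matrigel for transplantation and epithelium and mesenchyme separated from embryonic lung, and the series title names adult lineage reprogramming that depends on stroma. No strain, genotype, host or time after grafting is given for any group, and it is not stated if a reprogrammed sample takes its organ name from its donor cells or from the graft's final tissue. Nor is it stated whether the arrays of a group came from different animals, so p-values measure only the spread between arrays, which may be technical.

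Mucosal surfaces defend themselves with proteins poured into the fluid that covers them and with mucins that either form a gel or stay tethered to the cell surface. Lactoferrin, the product of Ltf, withholds iron from bacteria and is a major protein of milk, while Lcn2 captures the siderophores with which bacteria take up iron. Both are also stored in granules of neutrophils, so a bulk sample can hold their transcripts from more than epithelium. Pigr carries polymeric immunoglobulin A across epithelium into airway fluid and milk. Bpifa1 and Bpifb1 are lipid-binding proteins of the airway lining, Muc5b is a gel-forming mucin of airway mucus, and Muc1, Muc4 and Muc16 are membrane-tethered mucins.

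Levels are log2 of the processed signal minus the 75th percentile of the array, so that a level of 0 is the 75th percentile itself. Testing required that a gene's probe carry the scanner program's mark for a signal well above background on all 3 arrays of some group, and differences are called where limma's adjusted p is below 0.05 over all 24497 tested features. Between 71.7% and 77.5% of probes were well above background on 10 arrays, against 91.1% on reprogrammed lung replicate 1 and 89.1% on adult mammary replicate 4, whose signals also had the narrowest spans. Reprogrammed lung replicate 1 had the highest summed signal of 10 B cell markers, 130.4 times the 75th percentile against at most 22.1 elsewhere, and of 14 neutrophil markers, 26.1 against at most 4.14. Its sum over 12 general epithelial markers was 44.4, against 173.4 and 206.6 on the other reprogrammed lung arrays. Adult lung replicate 3 had a summed signal of 78.8 over 8 skin keratinocyte markers, against 1.61 or less on the other 11 arrays, mostly from loricrin (Lor) at a level of 6.002 and Krtdap at 3.80. The sum over 7 airway club cell markers was 353.2 to 519.0 in adult lung and 6.46 to 28.6 on the arrays of the other 3 groups, reprogrammed lung included. The sum over 10 luminal alveolar markers of the mammary gland was 0.40 to 0.49 in adult lung and 19.0 to 395.0 in the other groups.

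**Figure D1:**
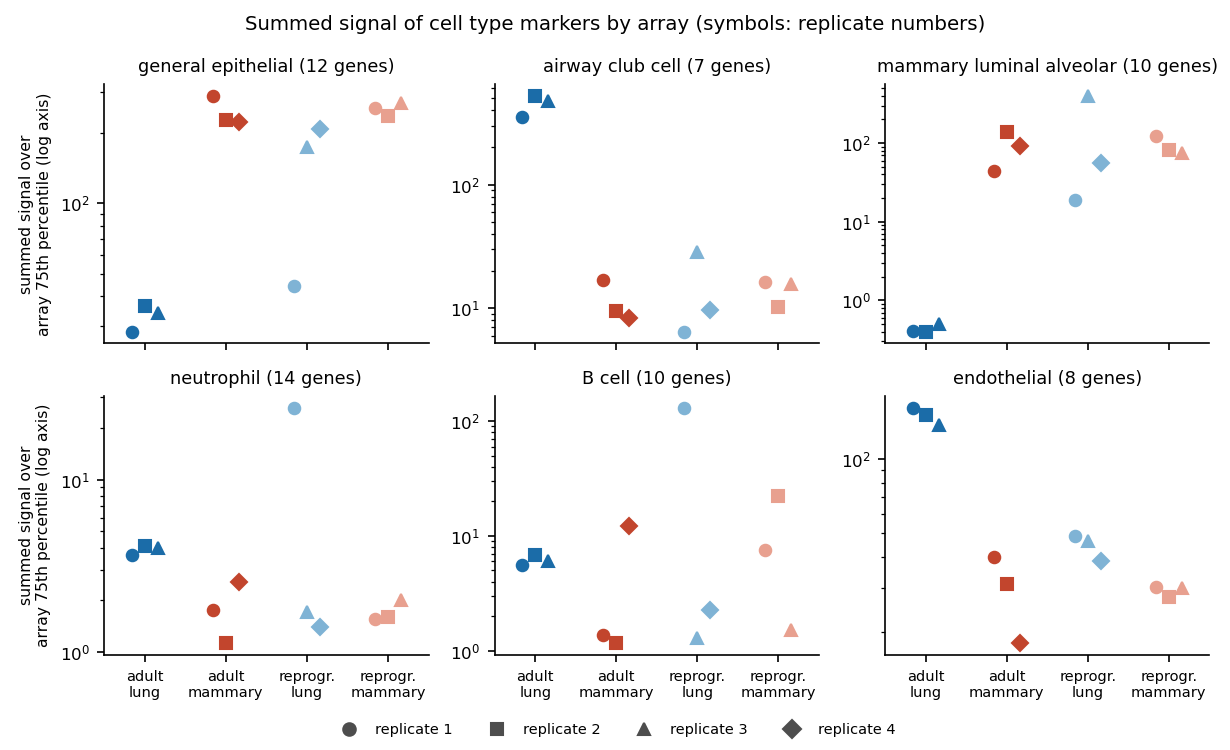
Summed signal of 6 marker lists on each of the 12 arrays, in multiples of the array's 75th percentile on a log axis; symbols give the replicate number. Adult lung stands apart in club cell and endothelial markers, and reprogrammed lung replicate 1 in B cell and neutrophil markers.

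The clearest contrast among these genes lay between adult lung and the other 3 groups. Between adult lung and adult mammary cells, 3 of the 8 tested genes were higher in lung (Bpifa1, Bpifb1 and Muc5b) and 1 was lower (Lcn2), where 28.5% of all tested features passed, 12.5% higher and 15.9% lower. From adult lung to reprogrammed lung, Lcn2 rose and Bpifa1, Bpifb1 and Muc5b fell, where 23.4% of all features passed, 14.1% higher and 9.31% lower. From adult lung to reprogrammed mammary cells, Lcn2 and Ltf rose and the same 3 genes fell, with 26.1% of all features called, 14.9% higher and 11.2% lower. These 3 comparisons share the adult lung arrays, so they are not separate evidence. Of the 8 genes, 7 were above background on all 12 arrays, and Bpifa1 was tested through adult lung alone, so the counts describe these genes and support nothing further. None of the 8 genes passed between reprogrammed and adult mammary cells, between reprogrammed lung and adult mammary cells, or between the 2 reprogrammed groups, and there limma called 0.00408%, 0.0122% and 0.00408% of all features, which is 1, 3 and 1 features. At an unadjusted p below 0.05 the counts of features in those comparisons were 2457, 2887 and 2346. With normexp background correction the share of called features that were higher was 60.9% in place of 44.0% between the adult organs, 39.7% in place of 60.2% from adult to reprogrammed lung and 42.9% in place of 57.0% from adult lung to reprogrammed mammary cells, while no called member changed sign. The number of arrays, 3 a group, limits the precision of every difference below.

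**Figure D2:**
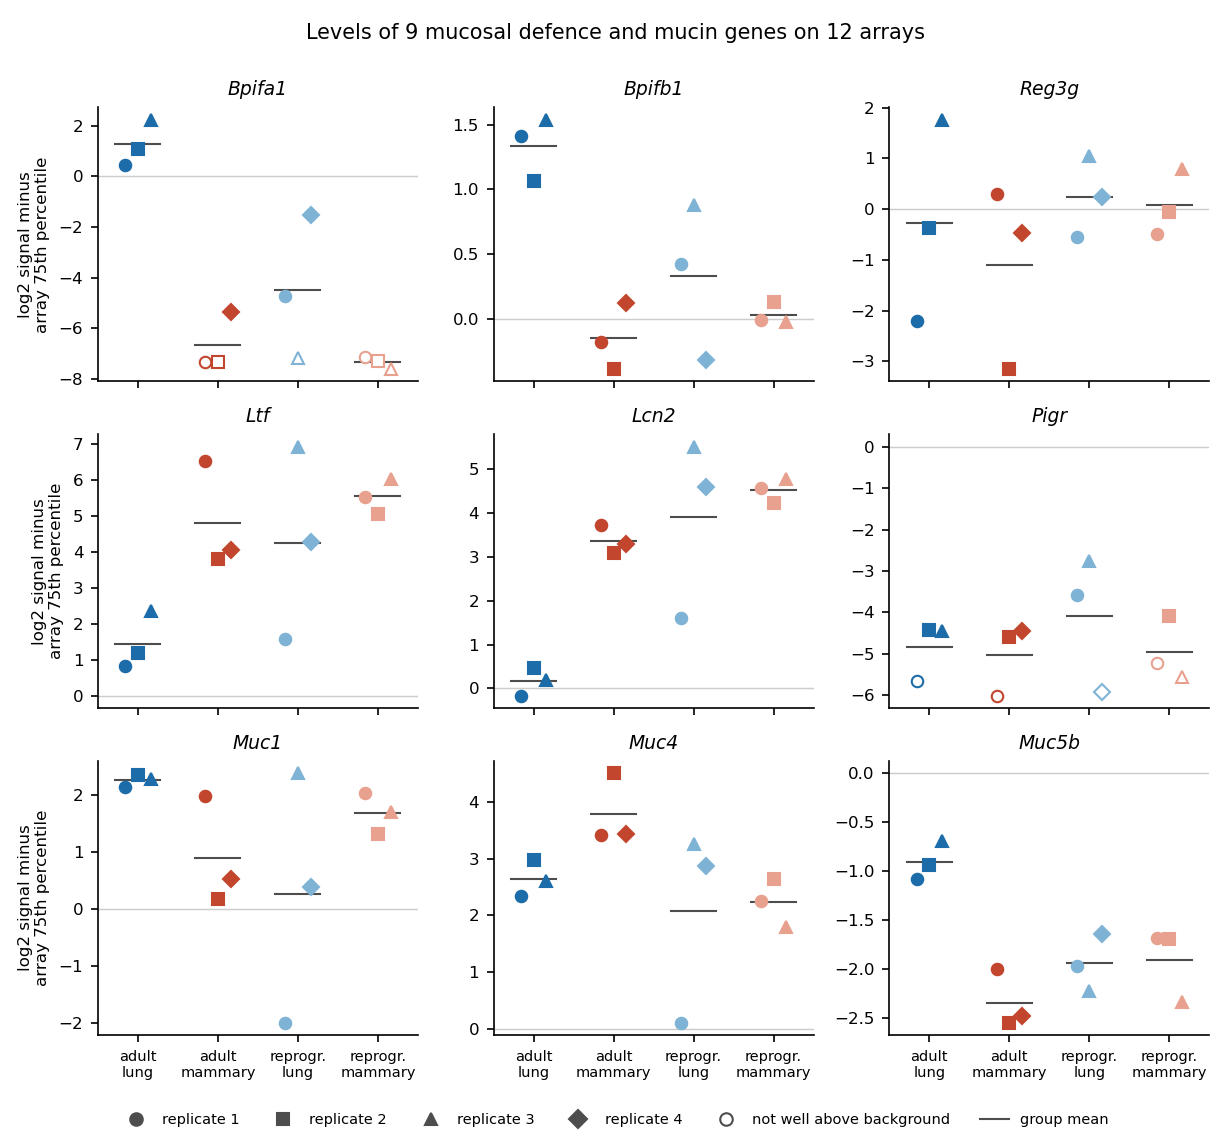
Level of each of the 9 measured genes on each of the 12 arrays (log2 signal minus the array's 75th percentile), by group, with a line at each group mean; open symbols are not well above background. Adult lung is highest for Bpifa1, Bpifb1 and Muc5b and lowest for Lcn2 on every array, and reprogrammed lung spans the widest range for Lcn2, Ltf, Muc1 and Muc4.

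Bpifa1, a secreted protein of the upper and conducting airways that binds lipids and hinders bacterial growth, showed the widest range of the 9 genes. Its gene lies at chr2:154142880-154149217 on the plus strand (GRCm38.p6). Because Bpifa1 is the one tested gene that was above background throughout a single group only, adult lung, its RefSeq promoter window is shown. The window is chr2:154142630-154142929 on the plus strand, from 250 bases before to 50 after the start, with matches to the NKX2-1 core CTCAAG (read on the minus strand as CTTGAG) in capitals.
Bpifa1: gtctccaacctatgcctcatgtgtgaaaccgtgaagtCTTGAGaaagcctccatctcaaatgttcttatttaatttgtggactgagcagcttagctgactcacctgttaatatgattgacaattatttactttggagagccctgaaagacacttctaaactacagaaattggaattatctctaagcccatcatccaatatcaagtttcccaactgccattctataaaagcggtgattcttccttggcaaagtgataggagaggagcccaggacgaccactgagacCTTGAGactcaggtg
NKX2-1 is a transcription factor of lung epithelium, and its 6-letter core began at positions -213 and 36 relative to the start. The core is common, being found in 15.9% of 32851 windows of this length. A match is a description of letters and not of binding.

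In adult lung, Bpifa1 stood at 0.45, 1.09 and 2.23. In adult mammary cells it stood at -7.32, -7.30 and -5.35, and only the last of these was well above background. In reprogrammed lung it stood at -4.74, -7.15 and -1.53 on replicates 1, 3 and 4, the middle one not above background, and in reprogrammed mammary cells at -7.12, -7.28 and -7.60, none above background. The adult lung arrays were thus higher than all 9 others, and the 3 reprogrammed lung arrays were far apart. Bpifa1 passed the filter through adult lung alone, so a difference from adult lung was built into its being tested.

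The adult lung level exceeded that of adult mammary cells by 7.91 ± 1.15 (log2, SE, limma adjusted p = 0.00072). Where any array of a group was below background, a bound is given in place of a fold, set by the dimmest probe that was well above background on each array. By this bound Bpifa1 was at least 83.9-fold higher in adult lung than in adult mammary cells, at least 80.6-fold higher than in reprogrammed mammary cells (adjusted p = 0.000445) and at least 31.1-fold higher than in reprogrammed lung (adjusted p = 0.00505). These 3 calls held under all 23 alternatives that could be run, but the sizes did not. With normexp background correction the 3 log2 differences were 4.22, -4.19 and -3.32, each smaller than its bound. Without reprogrammed lung replicate 3 the last was -4.39 (adjusted p = 0.00998), also below its bound, and without replicate 4 it was -7.20 (adjusted p = 0.00036). The bounds thus belong to the full set of arrays and the main processing. Reprogrammed lung and reprogrammed mammary cells differed by 2.86 ± 1.15 with an adjusted p of 0.486. Fewer cells of a type and less RNA per cell cannot be told apart in such bulk samples. The summed club cell signal moved with Bpifa1 between groups, but not within reprogrammed lung, where replicate 4 had the highest Bpifa1 and a club cell sum of 9.72, and replicate 3 had none above background and a sum of 28.6. Their part in the differences was not tested.

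Bpifb1, a larger relative of Bpifa1 found in mucous cells and glands of the airway, sits beside it at chr2:154190818-154220343. Its levels in adult lung were 1.41, 1.07 and 1.54, and in adult mammary cells -0.18, -0.38 and 0.12. In reprogrammed lung they were 0.42, 0.88 and -0.31, and in reprogrammed mammary cells -0.01, 0.13 and -0.03. Adult lung was again above all other arrays, while the remaining 3 groups overlapped. Bpifb1 was 2.80-fold higher in adult lung than in adult mammary cells (log2 difference 1.49 ± 0.28 SE, limma adjusted p = 0.00316), a far smaller step than for Bpifa1.

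Bpifb1 fell by 1.01 on the log2 scale from adult to reprogrammed lung (SE 0.28, adjusted p = 0.025) and was lower by 1.31 in reprogrammed mammary cells than in adult lung (adjusted p = 0.00636). The fall to reprogrammed lung was fragile: without adult lung replicate 1 its adjusted p was 0.0794, without adult lung replicate 3 it was 0.0889, and without reprogrammed lung replicate 4 the fall was 0.69 with an adjusted p of 0.0511. Between adult mammary and reprogrammed mammary cells Bpifb1 differed by 0.18 ± 0.28 (adjusted p = 0.878).

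Lcn2, which binds bacterial siderophores and rises in inflamed epithelia, ran the opposite way. Its gene lies at chr2:32384637-32387739 on the minus strand, and Ltf at chr9:111019292-111042766 on the plus strand (GRCm38.p6). The promoter windows of both genes (RefSeq, 250 bases before to 50 after the start) are shown because both had their lowest group mean in adult lung. The windows are chr2:32387690-32387989 on the minus strand and chr9:111019042-111019341 on the plus strand.
Lcn2: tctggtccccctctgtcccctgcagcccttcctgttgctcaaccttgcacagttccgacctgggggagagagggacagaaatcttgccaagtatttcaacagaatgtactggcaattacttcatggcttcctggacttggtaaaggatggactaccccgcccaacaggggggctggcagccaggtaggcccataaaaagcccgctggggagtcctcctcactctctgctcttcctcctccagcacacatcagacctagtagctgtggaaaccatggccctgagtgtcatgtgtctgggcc
Ltf: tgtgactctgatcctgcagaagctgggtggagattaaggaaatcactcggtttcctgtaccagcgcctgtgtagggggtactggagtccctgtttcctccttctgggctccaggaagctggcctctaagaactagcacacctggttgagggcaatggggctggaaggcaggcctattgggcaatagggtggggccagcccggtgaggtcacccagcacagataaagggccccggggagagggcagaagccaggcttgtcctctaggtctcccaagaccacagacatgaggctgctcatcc
No capitals appear because none of the 5 motifs searched on both strands had a match: TTCNNNGAA for STAT5, TTGCGNAA for C/EBP, GGGANTTTC for NF-kB, CTCAAG for NKX2-1 and TGTTTAC for FOXA. Over all 32851 windows these were found in 8.3%, 0.8%, 1.11%, 15.9% and 3.65% respectively. The absence of these letters says nothing of the factors beyond this window. Among the 9 members with a window, STAT5 letters appeared in Pigr and in the second start of Bpifb1, NF-kB letters in Reg3g, and NKX2-1 letters in Bpifa1, Reg3g and Muc1.

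Lcn2 stood at -0.17, 0.46 and 0.18 in adult lung and at 3.73, 3.08 and 3.30 in adult mammary cells. In reprogrammed lung it stood at 1.60, 5.52 and 4.59 on replicates 1, 3 and 4, and in reprogrammed mammary cells at 4.58, 4.22 and 4.78. Every adult lung array was below every other array. Replicate 1 of reprogrammed lung was below all mammary arrays, and the other 2 reached the level of reprogrammed mammary cells or above it.

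Lcn2 was 9.28-fold lower in adult lung than in adult mammary cells (log2 difference -3.21 ± 0.77 SE, limma adjusted p = 0.0108). It rose 13.4-fold from adult to reprogrammed lung (3.74 ± 0.77, adjusted p = 0.00578) and was 20.6-fold higher in reprogrammed mammary cells than in adult lung (4.37 ± 0.77, adjusted p = 0.0021). Without reprogrammed lung replicate 1 the rise in lung was 4.89 with an adjusted p of 1.78e-05, and without replicate 3 it was 2.94 with an adjusted p of 0.0154. Fitting the 2 lung groups alone gave the same rise with an adjusted p of 0.0538, and slide as a fixed block left the adult difference at -2.33 with an adjusted p of 0.163. On the slides that held both lung groups, the rise was 5.69, 1.42 and 4.13, the lowest of these from replicate 1.

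Reprogrammed lung and reprogrammed mammary cells differed in Lcn2 by -0.62 ± 0.77 (adjusted p = 0.829), and reprogrammed and adult mammary cells by 1.15 ± 0.77 (adjusted p = 0.659). The difference between the lung and mammary changes was 2.59 ± 1.09 with an adjusted p of 0.152, 3.74 with an adjusted p of 0.000722 without reprogrammed lung replicate 1, and 1.78 with an adjusted p of 0.254 without replicate 3.

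Ltf, the gene of lactoferrin, followed Lcn2 with more scatter. Its levels were 0.82, 1.19 and 2.35 in adult lung and 6.52, 3.82 and 4.06 in adult mammary cells. In reprogrammed lung they were 1.58, 6.93 and 4.26, and in reprogrammed mammary cells 5.54, 5.06 and 6.04. Adult lung lay below both mammary groups on every array, and the first reprogrammed lung array lay within the adult lung range.

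Ltf was 17.1-fold higher in reprogrammed mammary cells than in adult lung (log2 difference 4.09 ± 1.15 SE, limma adjusted p = 0.0243). Leaving out adult lung replicate 1 or 2, or any of the 3 reprogrammed mammary arrays, raised that adjusted p to between 0.0504 and 0.0841. The 10.2-fold lower level in adult lung than in adult mammary cells just missed the threshold (-3.35 ± 1.15, adjusted p = 0.0528) and passed it in 10 of 24 alternatives, among them the fits without reprogrammed lung replicate 1 (adjusted p = 0.0119) or replicate 3 (adjusted p = 0.0158), which estimate the spread from other arrays.

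From adult to reprogrammed lung Ltf differed by 2.80 ± 1.15 with an adjusted p of 0.110. Without reprogrammed lung replicate 1 the difference was 4.14 with an adjusted p of 0.00953, and without replicate 3 it was 1.47 with an adjusted p of 0.319. A second, dimmer Ltf probe gave -3.45 ± 1.27 between the adult organs and 3.40 ± 1.27 between reprogrammed and adult lung, neither called. It rose with the first in reprogrammed mammary cells against adult lung (4.51, adjusted p = 0.0233).

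Both genes are also neutrophil granule genes, and the summed signal of 14 neutrophil markers was 3.67 to 4.14 in adult lung, 1.12 to 2.54 in adult mammary cells, 1.39 to 26.1 in reprogrammed lung and 1.56 to 2.00 in reprogrammed mammary cells. Of the 14, 10 were above background on every adult lung array and 8 on every reprogrammed mammary array. The number was 5 to 13 on adult mammary arrays and 9 to 13 on reprogrammed lung arrays. The genes named next are only part of the 14 and do not stand for the list, whose sum was higher on every adult lung array than on any mammary array. The granule gene Camp was above background only on adult mammary replicate 4 and reprogrammed lung replicate 1, and so was Elane, while Csf3r was above it on no array. Those 2 arrays also had the largest shares of all probes well above background, 89.1% and 91.1%. The general epithelial sum was, like the means of both genes, lowest in adult lung, at 28.3 to 36.3. It was 222.5 to 286.4 in adult mammary cells, 44.4 to 206.6 in reprogrammed lung and 234.7 to 267.8 in reprogrammed mammary cells. Within reprogrammed lung it was 44.4, 173.4 and 206.6 on replicates 1, 3 and 4, while both genes were highest on replicate 3. Neither the part of this sum in the differences nor that of neutrophils was tested.

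**Figure D3:**
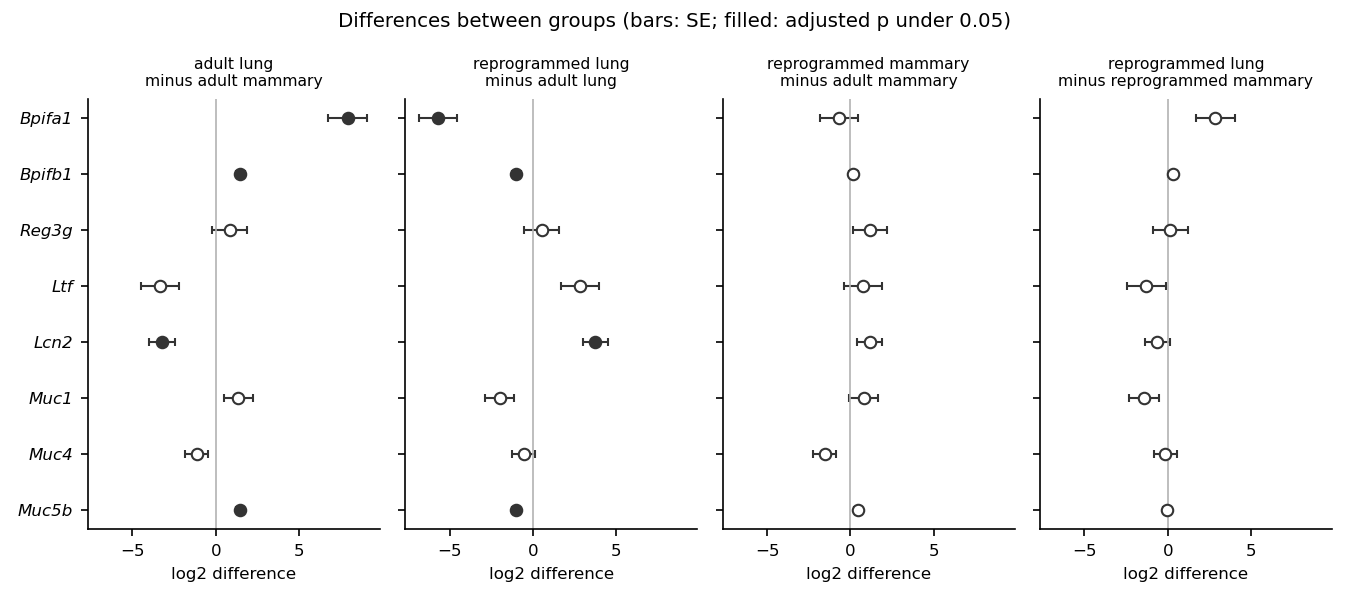
Log2 differences between groups for the 8 tested genes in 4 comparisons, with the SE as bars; filled points have an adjusted p below 0.05. Bpifa1, Bpifb1 and Muc5b lie above 0 and Lcn2 below it between the adult organs, their signs turn between adult and reprogrammed lung, and no point is filled in the other panels.

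Reg3g, a C-type lectin that kills Gram-positive bacteria and is best known from intestinal epithelium, was spread widely within the adult groups. It stood at -2.20, -0.38 and 1.76 in adult lung and at 0.30, -3.15 and -0.47 in adult mammary cells. In reprogrammed lung it stood at -0.56, 1.04 and 0.23, and in reprogrammed mammary cells at -0.49, -0.06 and 0.79. All 4 groups overlapped, and no comparison passed. The largest difference, 1.34 ± 1.04 between reprogrammed lung and adult mammary cells, had a limma adjusted p of 0.599. The highest value, on adult lung replicate 3, came from the array with the skin keratinocyte signal, and without that array the lung minus mammary difference turned from 0.83 to -0.19. Leaving out adult mammary replicate 2, the array with the lowest value, also gave -0.19. The part of that signal in Reg3g was not tested.

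Pigr, the polymeric immunoglobulin receptor, was dim and was well above background on 7 of the 12 arrays. Its single probe stood at -5.65, -4.42 and -4.45 in adult lung, the first not above background, and at -6.01, -4.59 and -4.46 in adult mammary cells, again with the first not above it. Reprogrammed lung gave -3.58, -2.77 and -5.92, the last not above background. Reprogrammed mammary cells gave -5.21, -4.09 and -5.56, and only the middle one was above background. No group was above background on all 3 arrays, so Pigr was not tested. Its highest levels came from replicates 3 and 1 of reprogrammed lung.

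Muc5b, at chr7:141839059-141873089, encodes a gel-forming mucin that club cells and submucosal glands secrete into airway mucus. It stood at -1.07, -0.94 and -0.69 in adult lung and at -1.99, -2.54 and -2.48 in adult mammary cells. Its levels in reprogrammed lung were -1.96, -2.22 and -1.63, and in reprogrammed mammary cells -1.68, -1.69 and -2.33. Adult lung lay above every other array, and the other groups overlapped one another.

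Muc5b was 2.71-fold higher in adult lung than in adult mammary cells (log2 difference 1.44 ± 0.25 SE, limma adjusted p = 0.00185). It fell by 1.04 from adult to reprogrammed lung (adjusted p = 0.012) and was lower by 1.00 in reprogrammed mammary cells than in adult lung (adjusted p = 0.0129). Without adult lung replicate 3 the last 2 differences were -0.93 and -0.89, with adjusted p-values of 0.0505 and 0.0536, and without reprogrammed mammary replicate 3 the last was -0.78 with an adjusted p of 0.0546. On the 3 slides holding both lung groups, the fall had the same sign each time, at -1.15, -1.27 and -0.70.

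In the comparison of the lung and mammary changes, 1 of the 8 genes was called, Muc5b (-1.48 ± 0.35, limma adjusted p = 0.0212). That share is near the 12.8% of all features that passed, 7.41% higher and 5.39% lower. The measure also equals the lung minus mammary difference in reprogrammed cells (-0.04) less that in adult cells (1.44). It is thus not separate evidence from the adult difference. Muc5b fell in lung, and in mammary cells it differed by 0.44 ± 0.25 with an adjusted p of 0.590. The call was lost without adult lung replicate 2 (-1.50, adjusted p = 0.0519), adult lung replicate 3 (-1.37, adjusted p = 0.055), adult mammary replicate 2 (-1.38, adjusted p = 0.0533), reprogrammed mammary replicate 1 (-1.37, adjusted p = 0.0603) or reprogrammed mammary replicate 2 (-1.37, adjusted p = 0.056). The same measure for Bpifa1 was -5.05 with an adjusted p of 0.0689, and -6.52 with an adjusted p of 0.00529 without reprogrammed lung replicate 4 but -3.71 with an adjusted p of 0.0882 without replicate 3. For Bpifb1 it was -1.19 with an adjusted p of 0.0784, and -1.46 with an adjusted p of 0.0262 without reprogrammed lung replicate 3 but -0.87 with an adjusted p of 0.0849 without replicate 4.

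Muc1, a tethered mucin on the apical surface of most glandular epithelia and on milk fat globules, was high in both organs. It stood at 2.13, 2.35 and 2.27 in adult lung and at 1.98, 0.17 and 0.51 in adult mammary cells. In reprogrammed lung it ranged widely, at -2.00, 2.37 and 0.38, and in reprogrammed mammary cells it stood at 2.02, 1.31 and 1.70. The adult lung arrays were close together and above all but 1 of the others, the third replicate of reprogrammed lung. No comparison passed. The difference from adult to reprogrammed lung was -2.00 ± 0.88 with a limma adjusted p of 0.131. Without reprogrammed lung replicate 3 it was -3.06 with an adjusted p of 0.0123, and the difference between the lung and mammary changes then passed as well (-3.85, adjusted p = 0.0263). Without replicate 1 the same measures were -0.88 (adjusted p = 0.321) and -1.67 (adjusted p = 0.182). A second Muc1 probe gave 1.55 ± 0.79 between the adult organs and -1.84 ± 0.79 between reprogrammed and adult lung, against 1.36 ± 0.88 and -2.00 ± 0.88 for the first.

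Muc4, a tethered mucin of airway and mammary epithelium that pairs with the receptor ErbB2, was high in every group. It stood at 2.34, 2.99 and 2.61 in adult lung and at 3.42, 4.51 and 3.44 in adult mammary cells. The reprogrammed lung arrays gave 0.11, 3.26 and 2.87, and the reprogrammed mammary arrays 2.25, 2.65 and 1.81. On this probe, the brightest of 3, adult mammary cells were highest on all 3 arrays, and the other groups overlapped. No comparison passed. The 2 differences with an unadjusted p below 0.05 both set a reprogrammed group below adult mammary cells, at -1.55 ± 0.69 for reprogrammed mammary cells (limma adjusted p = 0.493) and -1.71 ± 0.69 for reprogrammed lung (adjusted p = 0.386). Without reprogrammed lung replicate 1, the adult lung level was lower than the adult mammary level with an adjusted p of 0.0242 (-1.14), and the difference between the lung and mammary changes was 1.97 with an adjusted p of 0.023. Without replicate 3 these measures were -1.14 (adjusted p = 0.199) and 0.39 (adjusted p = 0.828).

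Muc4 has 2 dimmer probes, which differed from the first in size and, in 2 comparisons, in sign. Between reprogrammed and adult lung the 3 probes gave -0.57, 0.08 and -0.42, and between reprogrammed and adult mammary cells -1.55, -1.14 and -1.12. Between the reprogrammed groups they gave -0.16, 0.94 and 0.057. For adult lung minus adult mammary they gave -1.14, -0.28 and -0.64, and for reprogrammed lung minus adult mammary -1.71, -0.20 and -1.06. None of these was called. On the 2 dimmer probes adult mammary replicate 1 stood at -4.13 and -1.36, below every adult lung array.

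Likeness of pattern was measured as the root-mean-square difference over the 12 arrays on the log2 scale, with each gene centred on its own mean but not scaled, so genes that vary little come out close. Bpifb1 and Muc5b differed by 0.45, against standard deviations of 0.67 and 0.61 for the genes themselves. Lcn2 and Ltf differed by 0.81, against 1.98 and 2.12. The gene most like both Lcn2 (0.42) and Ltf (0.68), over 12 arrays and 14521 candidate genes, was Trf, which encodes the iron carrier transferrin. Trf stood at 1.37, 1.63 and 1.29 in adult lung and at 4.80, 4.04 and 4.24 in adult mammary cells. Reprogrammed lung gave 1.91, 6.17 and 4.54, and reprogrammed mammary cells 5.62, 4.73 and 5.31. As with Lcn2, the reprogrammed lung array with the lowest level was replicate 1. Next in likeness came Steap4 and Syne4 for Lcn2 and Lgi4 and Clic6 for Ltf.

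The genes most like Bpifa1 were the surfactant protein gene Sftpa1 (1.31), the secretoglobin Scgb3a1 (1.38) and the glutathione transferase Gsta3 (1.46), against a standard deviation of 3.78 for Bpifa1 itself over the 12 arrays. For Bpifb1 they were Atp13a2 (0.22), Zfp287 (0.24) and Adap2 (0.26), and for Muc5b Gsdmc3 (0.19), Rab3a (0.22) and D230025D16Rik (0.23). For Muc1 they were Elapor1, Dcxr and Itgb6 at 0.62 to 0.66, and for Muc4 Apoc1, Fzd3 and Fkbp4 at 0.53 to 0.54. The genes nearest to Reg3g (Olfr1443, Olfr1263 and Ly6g6c) still differed from it by 0.91 to 0.97, against its own standard deviation of 1.34. These measures describe 12 arrays in 4 groups and share their groups and their scaling.

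This and the other lists of further genes were chosen with earlier results of these data known. Their counts and medians thus describe the listed genes and support nothing further. Among 22 further genes of iron binding and the acute phase, 20 were tested, and 0 were higher and 9 lower in adult lung than in adult mammary cells, with a median difference of -0.69 against 0.0022 over all features, of which 12.5% were called higher and 15.9% lower. Those with the smallest adjusted p were the cytokine Il6 (-2.99, limma adjusted p = 0.0008), the neutrophil-attracting chemokine Cxcl1 (-2.62, adjusted p = 0.00116), the pentraxin Ptx3 (-5.77, adjusted p = 0.00299) and complement factor B, Cfb (-2.20, adjusted p = 0.00414). From adult to reprogrammed lung, 11 of the 20 rose and 0 fell, with a median of 1.68 against 0.10 over all features, of which 14.1% were called higher and 9.31% lower. Il6 rose by 3.76 (adjusted p = 0.000264), Cfb by 3.71 (adjusted p = 0.000265), Cxcl1 by 3.46 (adjusted p = 0.000286) and Slc11a1, a metal transporter of phagocytes, by 1.73 (adjusted p = 0.000407).

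Il6 shows the pattern on single arrays: -3.13, -3.15 and -2.85 in adult lung, 0.50, 0.18 and -0.83 in adult mammary cells, -0.19, 0.78 and 1.57 in reprogrammed lung, and 0.99, 1.52 and 0.88 in reprogrammed mammary cells. Adult lung was lowest on every array. Adult lung was also lowest in the summed signal of 8 fibroblast and fat markers, at 78.4 to 109.7. That sum was 205.9 to 293.0 in adult mammary cells, 184.4 to 337.1 in reprogrammed lung and 177.9 to 308.5 in reprogrammed mammary cells. The part of such cells in the iron-binding and acute-phase genes was not tested. Against adult lung, 9 of the 20 genes were higher in reprogrammed mammary cells and 0 were lower, against 14.9% and 11.2% of all features, led by Il6 (4.17), Slc11a1 (1.76), Cxcl1 (3.03) and Cfb (2.73). In the comparison of the lung and mammary changes 6 passed, all higher, against 7.41% higher and 5.39% lower over all features, with Cxcl1 (3.06), Cfb (3.18), C3 (2.26) and Nfkbiz (1.95) first. None passed in the other 3 comparisons. Leaving out reprogrammed lung replicate 1, 12 of the 20 rose from adult to reprogrammed lung, and without adult lung replicate 3, 9 did. The calls over all features moved as well, to 7251 and 4212 in these settings against 5722 in the main fit.

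**Figure D4:**
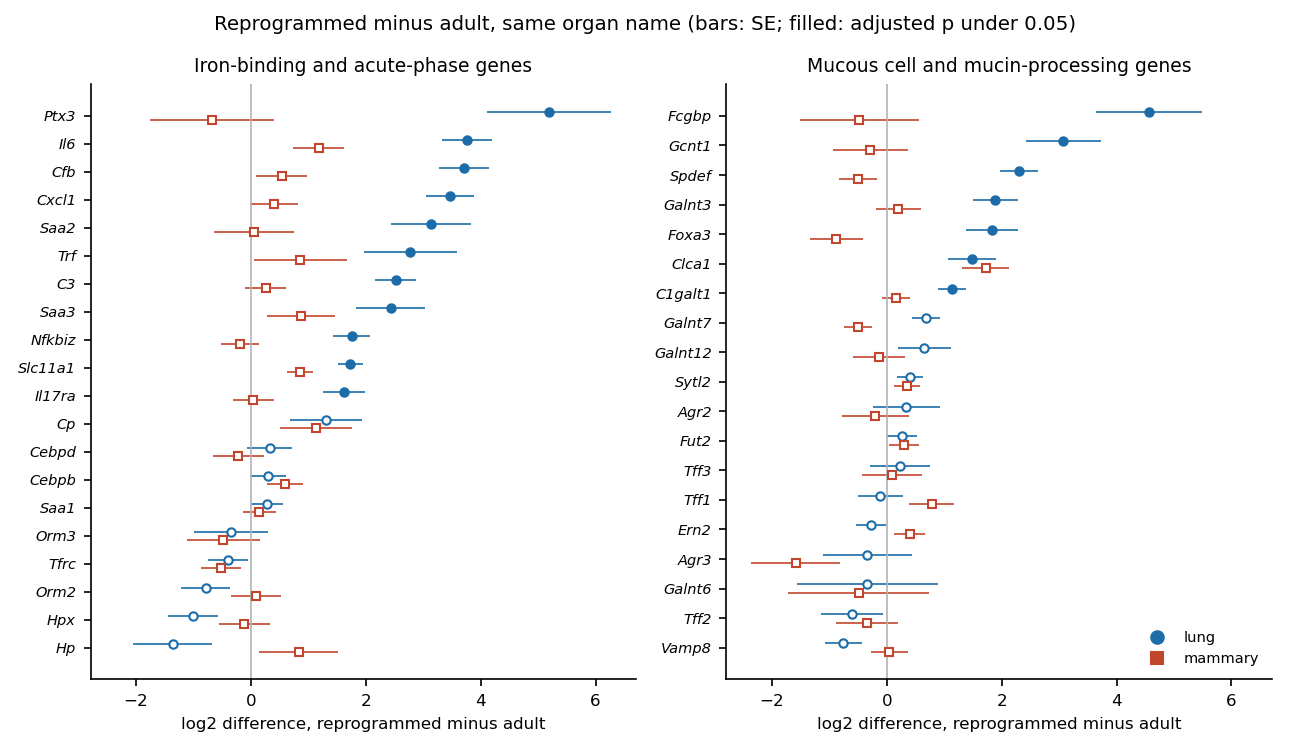
Reprogrammed minus adult log2 differences, with SE bars, for the tested iron-binding and acute-phase genes (left) and mucous cell genes (right), in lung (circles) and mammary cells (squares); filled points have an adjusted p below 0.05. In lung 11 of 20 and 7 of 19 points are filled, all above 0, and in mammary cells none. Among the genes with filled points, Saa3 (left) and Foxa3, Galnt3 and Spdef (right) had adult lung arrays below background.

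Of 28 other secreted antimicrobial and lectin genes, 19 were tested. In adult lung 4 were higher than in adult mammary cells and 2 lower, a share near the 28.5% called over all features, with the lysozymes Lyz2 (4.82, limma adjusted p = 0.00224) and Lyz1 (5.40, adjusted p = 0.00261), the collectin Sftpd (5.53, adjusted p = 0.00657) and the ribonuclease Ang (1.39, adjusted p = 0.0142) first. The 2 lower, named after their values were seen, were Cd14 (-2.13) and the beta-defensin Defb1, which was above background on 1 of 3 adult lung arrays and at least 8.85-fold lower. From adult to reprogrammed lung 2 rose and 4 fell, where 23.4% of all features passed: Sftpd fell by 6.25 (adjusted p = 0.00396), Lyz1 fell by 4.17 (adjusted p = 0.0118) and Lyz2 fell by 3.53 (adjusted p = 0.0134), while the lipopolysaccharide-binding protein Lbp rose by 1.65 (adjusted p = 0.00817). Against adult lung, 1 was higher and 5 lower in reprogrammed mammary cells, where 26.1% of all features passed, with Sftpd (-7.42), Ang (-1.67), Lyz1 (-4.41) and Lyz2 (-3.62) first.

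The lysozymes are also genes of macrophages, whose 9 markers summed to 9.85 to 13.6 in adult lung, 5.92 to 9.75 in adult mammary cells, 3.84 to 20.5 in reprogrammed lung and 3.80 to 14.6 in reprogrammed mammary cells. The 9 markers of alveolar epithelium, which makes Sftpd and lysozyme, summed to 157.1 to 299.1 in adult lung and 3.93 to 5.88 on the arrays of the other 3 groups. All 9 were higher in adult lung than in adult mammary cells, where 28.5% of all features passed. All 9 fell from adult to reprogrammed lung, where 23.4% passed. These are markers of lung, so a higher level in adult lung was built into the choice of list. The part of either cell type in the lysozymes and Sftpd was not tested. In the comparison of the lung and mammary changes, Defb1 was higher and Lyz2 (-4.72) and Lyz1 (-5.17) lower. That share of the 19 tested genes is near the 12.8% of all features that passed. Defb1 rests in part on adult lung arrays below background. Without adult lung replicate 3, 2 were higher and 0 lower there, so neither lysozyme passed, and without reprogrammed lung replicate 1, 3 were higher and 3 lower. In these settings 2163 and 5249 of all features were called there, against 3135 in the main fit. Between adult and reprogrammed lung, 4 rose and 3 fell without adult lung replicate 3, and 3 rose and 5 fell without reprogrammed lung replicate 1. Of all features, 4212 and 7251 were then called, against 5722 in the main fit.

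Of 11 other mucin genes, 5 had a probe and were tested, and Muc15, a tethered mucin of milk fat globules, was the one that passed. Of all features, 28.5% passed between the adult organs and 23.4% from adult to reprogrammed lung. From adult lung to reprogrammed mammary cells 26.1% did. Muc15 stood at -6.83, -7.19 and -5.71 in adult lung, none above background, and at -0.28, 1.20 and 1.14 in adult mammary cells. The reprogrammed lung arrays gave -3.50, 1.71 and -2.33, and the reprogrammed mammary arrays -0.23, -0.83 and -0.65, all above background. Muc15 passed the filter only through groups other than adult lung, so a lower level in adult lung was built into its being tested. Muc15 was at least 50.3-fold lower in adult lung than in adult mammary cells (limma adjusted p = 0.000811), at least 12.1-fold higher in reprogrammed than in adult lung (adjusted p = 0.00596) and at least 21.1-fold higher in reprogrammed mammary cells than in adult lung (adjusted p = 0.00234).

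Of 23 mucous cell and mucin-processing genes, 19 were tested. Between the adult organs 2 were higher and 6 lower in lung, where 12.5% of all features were called higher and 15.9% lower. These were led by Galnt3, which starts O-linked sugar chains (at least 5.67-fold lower, limma adjusted p = 0.000594), the goblet cell factor Spdef (at least 4.29-fold lower, adjusted p = 0.000819), the mucus protein Fcgbp (-6.23, adjusted p = 0.00115) and Foxa3 (at least 1.14-fold lower, adjusted p = 0.00488). In adult lung Foxa3 was above background on 0 of 3 arrays, and Galnt3 and Spdef were above it on 2 of 3. Foxa3 passed the filter through neither lung group, so a lower level in adult lung was built into its being tested. From adult to reprogrammed lung 7 passed as higher and 0 as lower, against 14.1% and 9.31% of all features. One of the 7 was Foxa3, which was above background on 0 adult and 1 reprogrammed lung array, so no fold is given. The first were Spdef (at least 4.54-fold higher, adjusted p = 0.000793), Galnt3 (at least 3.02-fold higher, adjusted p = 0.00608), C1galt1 (1.13, adjusted p = 0.00628) and Fcgbp (4.57, adjusted p = 0.00664). Muc5b, the gel-forming mucin itself, fell in the same comparison.

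Against adult lung, 5 of the 19 were higher and 1 lower in reprogrammed mammary cells, against 14.9% and 11.2% of all features. Galnt3 (at least 6.50-fold), Fcgbp (5.75 on the log2 scale), Spdef (at least 3.03-fold) and Clca1 (1.97 on the log2 scale) came first. Fcgbp had no usable spot on reprogrammed mammary replicate 2, so its value rests on 2 arrays of that group. In the comparison of the lung and mammary changes 5 were higher, led by Spdef, Foxa3, Gcnt1 (3.36) and Fcgbp (5.05), against 7.41% of all features, and without adult lung replicate 3 only 1 was. Spdef and Foxa3 are given no value there because adult lung arrays were below background. Without adult lung replicate 3, 5 passed as higher from adult to reprogrammed lung, and without reprogrammed lung replicate 1, 7 did. Of all features, 4212 and 7251 were called in these settings, against 5722 in the main fit. For the lung and mammary changes, 2163 of all features were called without adult lung replicate 3, against 3135 in the main fit.

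Pigr was too dim to test, but 13 of 16 other genes of immunoglobulin A transport and mucosal homing could be. Between the adult organs 3 were higher and 0 lower in lung, a share below the 28.5% called over all features: the B cell survival factor Tnfsf13b (2.08, limma adjusted p = 0.00321), the mucosal chemokine Ccl28 (1.00, adjusted p = 0.0123) and the recycling GTPase Rab11a (0.74, adjusted p = 0.0259). From adult to reprogrammed lung Ccl28 fell by 0.76 (adjusted p = 0.0482), where 23.4% of all features passed. Tnfsf13b was lower by 1.18 in reprogrammed mammary cells than in adult lung (adjusted p = 0.0491), where 26.1% of all features passed. Both genes were lower in the comparison of the lung and mammary changes (Tnfsf13b -1.97, Ccl28 -1.19), a share near the 12.8% of all features that passed. The calls in these last 3 comparisons were all lost without adult lung replicate 3. Leaving out reprogrammed lung replicate 1 gave 2 calls from adult to reprogrammed lung and 3 from adult lung to reprogrammed mammary cells. Of all features, 7251 and 8654 were then called in these 2 comparisons, against 5722 and 6394 in the main fit. Without adult lung replicate 3 they were 4212 and 4866.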

How the data were processed

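Per the file headers, the deposited scanner files are output of Agilent Feature Extraction 10.5.1.1 (the submitters' processing notes name 10.1), and the processed signal is an intensity on a linear scale from which each array's background and spatial trend were removed, without scaling between arrays. The authors' deposited series matrix holds log2 values whose columns have medians of 6.78 to 6.79 and which rank as the raw median signal. In the sources used here their making is not given. They served as an alternative only.

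Outlier spots (91 to 280 per array) were left out, and spots of a probe were averaged. Levels are log2 processed signals, less the array's own 75th percentile. Probes were named through their accession with RefSeq's gene table (GRCm38.p6), which gave a symbol to 24844 of 41174 probes, and the brightest probe stood for a gene. This left 32678 features, of which 24497 passed the filter. The fit used limma 3.58.1 under R 4.3.3 (4 group means over 12 arrays, Benjamini-Hochberg adjustment within each comparison), after the fit was tested on simulated data. Negative-control medians were 18 to 23, against a 75th percentile of 293.8 to 608.5.

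All 10 genes were to be named, with at most 4 genes per list and comparison, those with the smallest adjusted p. The members and lists were chosen with earlier results of these data known. The scanner files used have no mean signal column, so the normexp alternative (offset 50) started from the median signal. Arrays with the same replicate number did not deviate together (13 pairs, correlations -0.53 to 0.332), so no pairing was used. All arrays were scanned on 1 day, slide by slide, on 5 slides. Other alternatives are given in the closing section.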

Additional observations from a re-analysis of the deposited data

Results flagged for a closer look

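The change from adult to reprogrammed cells differed between lung and mammary cells for Muc5b, by -1.48 ± 0.35 on the log2 scale (limma adjusted p = 0.0212). It was singled out because this difference of changes passed its own test, as did 12.8% of all features. In lung Muc5b fell by 1.04, and in mammary cells it differed by 0.44 with an adjusted p of 0.590. The 3 adult lung arrays were above all 9 others. In 7 of the 23 alternatives the adjusted p lay between 0.0519 and 0.0804, with the sign kept.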

How the results depend on the processing

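Of the calls named for single genes, Bpifa1 kept all 3 of its calls under the 23 alternatives that could be run for it; with only features above background on all arrays it was not tested. Muc5b between the adult organs passed in all 24. With slide as a fixed block, the calls lost were those of Bpifb1 (1.56, limma adjusted p = 0.0529) and Lcn2 (-2.33, adjusted p = 0.163) between the adult organs, Bpifb1 from adult to reprogrammed lung (-1.01, adjusted p = 0.0683), the Muc5b difference of changes (-1.34, adjusted p = 0.0543) and 4 of 5 between reprogrammed mammary cells and adult lung. With 3 arrays a group, genes near background are bounded rather than measured. The cause of these shifts was not tested.

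Counts of members called moved to 2 between the adult organs, to 1 from adult lung to reprogrammed mammary cells and to 0 for the lung and mammary changes with slide as a fixed block. They moved to 2 from adult to reprogrammed lung when only the groups compared were fitted. For the lung and mammary changes they were 2 with normexp, quantile normalization or the authors' values, 3 without the 2 arrays of narrower span and 5 with array weights. Leaving out 1 array gave 2 to 5 members from adult to reprogrammed lung, 3 to 5 from adult lung to reprogrammed mammary cells and 0 to 3 for the lung and mammary changes.

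Counts of all features called moved further. Between the adult organs they were 2702 with slide as a fixed block. From adult to reprogrammed lung they were 2828 with normexp, 3117 with only the groups compared and 3727 with a replicate block. From adult lung to reprogrammed mammary cells they were 12495 with array weights, 10765 with only the groups compared and 2439 with slide as a fixed block. For the lung and mammary changes they were 5881 with array weights, 1137 with normexp, 1166 with slide as a fixed block, 5711 without the 2 arrays of narrower span and 1136 with a replicate block, and 1790 to 5249 with 1 array left out.

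Between reprogrammed and adult mammary cells, features called were 6 among those above background on all arrays and with the authors' values, 394 with array weights, 2 with the mean over probes, 82 without the 2 arrays of narrower span, and 0 with normexp, quantile normalization, only the groups compared, a replicate block or slide as a fixed block, with 1 to 19 when 1 array was left out. Between reprogrammed lung and adult mammary cells they were 5 with quantile normalization, 16 without the 2 arrays of narrower span, and 0 with normexp, only the groups compared, a replicate block or slide as a fixed block, with 2 to 327 when 1 array was left out. Between the reprogrammed groups they were 8 with array weights or without the 2 arrays of narrower span, 2 with no filter, and 0 among features above background on all arrays and with the authors' values, normexp, quantile normalization, only the groups compared, a replicate block or slide as a fixed block, with 0 to 160 when 1 array was left out.

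Signs turned only for differences that had not passed. With array weights, Muc4 between reprogrammed and adult lung was 0.19, Ltf and Muc1 between reprogrammed lung and adult mammary cells were 0.97 and 0.62, and Lcn2, Ltf and Muc4 between the reprogrammed groups were 0.42, 0.28 and 0.73. Without the 2 arrays of narrower span these 6 were 0.42, 0.43, 0.30, 0.53, 0.049 and 0.83. With slide as a fixed block, Ltf and Muc1 between reprogrammed lung and adult mammary cells were 0.75 and 0.55, Reg3g between reprogrammed mammary cells and adult lung was -0.61, and Lcn2 between the reprogrammed groups was 0.22. Bpifa1 between reprogrammed and adult mammary cells was 0.0879 with the authors' values, 0.033 with normexp and 0.51 with a replicate block. Between the reprogrammed groups Muc5b was 0.055 with normexp, Muc4 0.28 with the mean over probes, and Reg3g -0.25 with a replicate block.

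With 1 array left out, Lcn2 ran from -0.28 to 1.68 between reprogrammed lung and adult mammary cells and from -1.43 to 0.53 between the reprogrammed groups. Ltf ran from -1.88 to 0.80 and from -2.62 to 0.049 in the same comparisons, and Muc1 from -1.70 to 0.49 in the first. Muc4 ran from -1.16 to 0.42 between reprogrammed and adult lung and from -0.75 to 0.83 between the reprogrammed groups, and Muc5b from -0.26 to 0.10 there. Reg3g ran from -0.19 to 1.79 between the adult organs, from -0.45 to 1.53 between reprogrammed and adult lung, from -0.61 to 1.37 between reprogrammed mammary cells and adult lung, from -0.24 to 0.56 between the reprogrammed groups and from -1.64 to 0.35 for the lung and mammary changes.

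Replicate numbers did not pair the arrays by their deviations, so the replicate block is a check and not a paired analysis. Under the block, Bpifb1 between reprogrammed and adult lung was -0.98 (adjusted p = 0.0776) and the Muc5b difference of changes -1.62 (adjusted p = 0.0804), both lost, while Ltf between the adult organs (-4.03, adjusted p = 0.0484) and the Bpifa1 difference of changes (-7.27, adjusted p = 0.0273) passed.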
